A study of Saccharomyces cerevisiae with 8 samples.

Results

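The proteasome genes comprised 36 budding yeast genes, chosen by name: the 14 genes of the 20S core particle, 19 genes of the 19S regulatory particle, and 3 regulators of the system, RPN4, UBI4 and CDC48. All 36 names were found among the 6002 nuclear protein-coding open reading frames (ORFs) of the R64 (sacCer3) annotation. The rule uses gene names and no measured value, although the group was proposed with earlier results of these data known. The readout was chromatin immunoprecipitation sequencing (ChIP-seq) of RNA polymerase II (RNAPII), given as lists of regions enriched over input DNA. Both strains were W303a derivatives, harvested in mid-log growth in SC medium kept at 30 °C. Both expressed Tfg1, the larger TFIIF subunit, with an HA tag, and TFIIF is a general transcription factor that joins RNAPII at promoters. In Tfg1-HA the protein was otherwise unmodified. In Tfg1-K60,61R-HA, arginines replaced a pair of lysines that form the main, but not the sole, site of SUMO attachment on Tfg1. By the study's methods the mutant strain also carries an unintended additional substitution elsewhere in Tfg1, and the samples hold no strain with only the lysines exchanged, so the substitutions cannot be told apart. RNAPII was immunoprecipitated with 8WG16, an antibody to its largest subunit Rpb1. Each strain had 2 independent replicates, which gave 4 peak lists, and the 4 matched input libraries were used by the authors as the background.

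The proteasome degrades proteins that carry ubiquitin chains. Its core particle is a barrel of alpha and beta subunits with the proteolytic sites inside, and its regulatory particle binds, unfolds and deubiquitinates substrates before they enter the barrel. In budding yeast most genes of both particles share an upstream element, PACE, bound by the transcription activator Rpn4. Rpn4 is itself a short-lived substrate of the proteasome, so the genes are held under feedback control. ChIP-seq of RNAPII reports where polymerase sits on a gene, and a peak says that the signal exceeded input there, not how much transcript was made.

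The PACE letters GGTGGCAAA, searched on both strands from 250 bases before to 50 bases after the start codon in the R64 genome, were found in 29 of the 36 proteasome genes, against 72 of 6001 ORF windows of the same length (1.2%). They were found in 12 of the 14 core particle genes, in 15 of the 19 regulatory particle genes, and in UBI4 and CDC48. The 7 genes without the letters in this window were RPN4, SEM1, RPN10, RPN13, PRE5, PUP1 and RPN8. With the first base dropped (GTGGCAAA, which every full match also holds) the count was 32 of 36, against 144 of 6001 windows (2.40%). The motif lay 75 to 174 bp before the start codon, read in the direction of the gene in 20 genes and in the opposite direction in 9. The sites below are shown to let the letters around the element be compared. They belong to the 7 motif-bearing genes with at least 50% of the ORF under RNAPII peaks in every list. The others belong to the 5 genes that no peak touched in any list. The label beside a site describes the ORF, and the motif itself can lie outside the peaks. It did so in every list at PRE9, PUP2 and RPN5. At UBI4 it lay outside in every list except Tfg1-HA replicate 1, and at SCL1 in Tfg1-K60,61R-HA replicate 2. Each site is written 5′ to 3′ along its gene with 10 bases on either side, and the capitals mark the motif or its reverse complement.
SCL1 (chrVII:475337-475365, minus strand), under peaks in every list: cacacaccaaTTTGCCACCgtaaggatag
PRE9 (chrVII:761223-761251, plus strand), under peaks in every list: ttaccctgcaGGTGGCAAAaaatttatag
PUP2 (chrVII:999226-999254, minus strand), under peaks in every list: aaccaagaccGGTGGCAAAagagtaacct
PRE1 (chrV:177683-177711, plus strand), under peaks in every list: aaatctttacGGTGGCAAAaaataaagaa
RPN5 (chrIV:190776-190804, plus strand), under peaks in every list: ttgacttttcGGTGGCAAAatgcaaaggg
UBI4 (chrXII:65349-65377, minus strand), under peaks in every list: ggctccgggtTTTGCCACCtttgaattcg
CDC48 (chrIV:238787-238815, minus strand), under peaks in every list: atgtgaattcGGTGGCAAAaaaggacata
PRE10 (chrXV:1018856-1018884, minus strand), no peak in any list: cctctaaatcGGTGGCAAAaataagaaag
RPT1 (chrXI:174048-174076, plus strand), no peak in any list: attaccgaatTTTGCCACCcgaaaactaa
RPT5 (chrXV:544855-544883, plus strand), no peak in any list: gccaatatgtGGTGGCAAAaatgaattaa
RPT6 (chrVII:411352-411380, minus strand), no peak in any list: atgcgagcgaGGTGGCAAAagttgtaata
RPN7 (chrXVI:742290-742318, plus strand), no peak in any list: ataagttaagTTTGCCACCcattgaggat
The element was thus present both upstream of genes with RNAPII peaks in every list and upstream of genes with none. It was found in 7 of the 8 genes occupied in all 4 lists, in 14 of the 18 occupied in 1 to 3 lists, and in 8 of the 10 occupied in no list. A match of letters is a description and was not tested as a binding site.

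The lists held 1257 peaks in Tfg1-HA replicate 1, 1171 in Tfg1-HA replicate 2, 1098 in replicate 1 of the mutant and 894 in replicate 2 of the mutant. Together the peaks of a list covered between 1334 and 2170 kb, with median widths from 1100 to 1204 bp and a median fold enrichment over input between 1.44 and 1.5. As deposited, the replicate 1 list of Tfg1-K60,61R-HA also repeated all 894 rows of replicate 2, and these copies were removed. Peak names inside the lists are in upper case in both replicate 1 lists and in lower case in both replicate 2 lists. In yeast nomenclature lower case marks a mutant allele, so the names point to another assignment of lists to strains than the sample labels do. The lists with lower-case peak names were also deposited under lower-case names with an added letter m (tfg1m), and the others under TFG1. The labels were kept here, and the split by case is given beside the main counts and differences. Read depth is not given by peak lists.

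Between 10 and 26 of the 36 proteasome genes lay under RNAPII peaks in a list, the regulators and the core particle more often than the regulatory particle. A gene was called occupied where at least 50% of its ORF lay under peaks. In Tfg1-HA replicate 1, 26 of the 36 were occupied (72.2%, against 19.9% of all ORFs). In Tfg1-HA replicate 2 the count was 14 (38.9%, against 17.3%). Tfg1-K60,61R-HA replicate 1 gave 12 (33.3%, against 16.9%), and Tfg1-K60,61R-HA replicate 2 gave 10 (27.8%, against 12.7%). Tfg1-HA replicate 1 stands apart from the other 3 lists, which lie within 4 genes of each other. Over the replicates the count was 20 ± 8.49 in Tfg1-HA and 11 ± 1.41 in Tfg1-K60,61R-HA (SD, n = 2), a difference of -9 genes that became -3 without Tfg1-HA replicate 1 and -0.5 with peaks of fold 2 or more. With the lists split by the case of their names, the lower-case lists held 14 and 10 occupied genes and the upper-case lists 26 and 12.

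The core particle had 11, 8, 5 and 6 of its 14 genes occupied, in the order Tfg1-HA replicates 1 and 2, then Tfg1-K60,61R-HA replicates 1 and 2, which is the order used for every set of 4 values from here on. The regulatory particle had 12, 4, 4 and 2 of its 19 genes occupied. All 3 regulators were occupied in both replicate 1 lists, and UBI4 and CDC48 also in both replicate 2 lists. The mean share of the ORF under peaks was 81.0%, 54.3%, 38.2% and 38.5% for the core particle. It was 62.3%, 27.3%, 23.6% and 20.8% for the regulatory particle, so the core particle was higher in each of the 4 lists. Core particle ORFs are also shorter, with a median of 764.5 bp against 1290 bp for the regulatory particle and 1200 bp for all ORFs, and the part of length in the result was not tested. The mean over all ORFs was 21.4%, 18.7%, 18.1% and 13.7%.

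**Figure D1:**
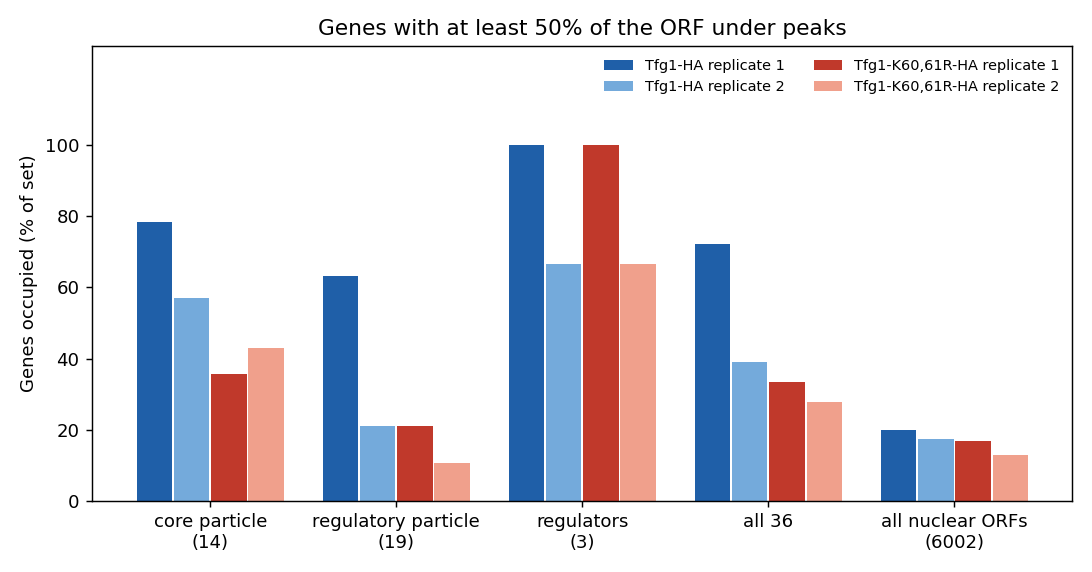
Share of genes (%) with at least 50% of the ORF under RNAPII peaks in each of the 4 lists, for the proteasome genes, their 3 classes and all 6002 ORFs, with the y axis from 0. Tfg1-HA replicate 1 has 72.2% of the proteasome genes occupied, and the other 3 lists have 27.8% to 38.9%, all above the all-ORF shares of 12.7% to 19.9%.

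Of the 36 genes, 8 (22.2%, against 10.8% of all ORFs), were occupied in all 4 lists. They were the alpha subunit genes SCL1, PRE9, PUP2 and PRE5, the beta subunit gene PRE1, the regulatory particle lid gene RPN5, and the regulators UBI4 and CDC48. In at least 1 list, 26 genes were occupied (72.2%, against 22.8%), and these were the same 26 that were occupied in Tfg1-HA replicate 1. No peak in any list touched PRE10 (an alpha subunit gene), RPT1, RPT5 and RPT6 (genes of the ATPase ring that unfolds substrates) or RPN7 (a lid gene).

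PRE1, a beta subunit gene at chrV:177835-178431, was fully covered in all 4 lists by a peak that covered at least 50% of no other ORF. Its peak had fold enrichments of 1.74, 1.59, 1.5 and 1.51 and a width between 1686 and 1749 bp. The peak began 828 to 893 bp before the start codon and ended 259 to 290 bp after the ORF, so its borders differed little between the lists. PUP2, an alpha subunit gene at chrVII:998358-999140, was likewise alone under its peak, with 100%, 100%, 92.0% and 97.7% covered and folds of 1.66, 1.59, 1.57 and 1.45. Coverage of PUP2 did not overlap between the strains, although every list was near complete coverage.

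The other alpha and beta genes occupied in every list shared their peaks with neighbours. SCL1 was covered to 100%, 100%, 100% and 80.2%. In the first 3 lists it lay at the end of a peak of 8916 to 8988 bp that also spanned PMA1, the gene of the plasma membrane proton pump, LEU1 and MPO1, and the folds of 8.51, 7.69 and 9.66 are those of the whole peak. In Tfg1-K60,61R-HA replicate 2 SCL1 had a separate peak of 1884 bp, shared with ERG4, whose fold was 1.43. PRE9 had 95.9%, 61.5%, 59.6% and 51.0% of its ORF under the end of a peak that ran on, past the stop codon, over LSB1 and TPO2, with folds of 1.90, 1.82, 1.81 and 1.61. PRE5 had 98.6%, 61.7%, 70.8% and 86.2% covered, by a peak shared with its neighbour YMR315W and with folds of 1.79, 1.39, 1.51 and 1.39. PRE5 was thus higher in both mutant lists than in Tfg1-HA replicate 2 and lower than in Tfg1-HA replicate 1.

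Among the remaining core particle genes, PRE3 and PUP3, both beta subunit genes, passed the limit in each Tfg1-HA list and in neither mutant list. PRE3, whose product carries the caspase-like activity and which is the only gene of the 36 with more than 1 coding exon, had 100%, 100%, 35.6% and 0% covered. PUP3 had 87.5%, 100%, 0% and 0%. Their peaks in the Tfg1-HA lists were weak, with folds of 1.29 and 1.24 at each gene. At PRE3 the peak in Tfg1-HA replicate 1 was 4049 bp wide and shared with OST1. PRE7 had 100%, 100%, 30.2% and 91.5%, and therefore was occupied in 1 of the mutant lists. Its peak in each Tfg1-HA list was shared with ERD2. PUP1, the gene of the trypsin-like subunit, did not reach occupancy, with 48.9%, 24.2%, 0% and 0%. PRE8 was touched in Tfg1-HA replicate 1 only, at 3.59% of its ORF.

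PRE6, PRE2 and PRE4 were occupied in Tfg1-HA replicate 1 only. PRE6 had 100%, 6.01%, 0% and 8.5% covered. The peak over it in Tfg1-HA replicate 1 was 3533 bp wide with a fold of 2.75 and also held RPP2A and RPS15, a pair of ribosomal protein genes. PRE2, the gene of the chymotrypsin-like subunit, had 100%, 6.48%, 21.6% and 14.9%, and its peak in that list also held SNT309 and the ribosomal protein gene RPL11A. PRE4 had 100%, 0%, 24.6% and 9.24%. Of all 36 genes, 9 showed this pattern (25%, against 2.10% of all ORFs): these 3 core genes, and RPT2, RPT4, RPN6, RPN8, RPN10 and RPN11 of the regulatory particle. Of ORFs occupied in at least 1 list, these were 9 of 26, against 126 of 1369.

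**Figure D2:**
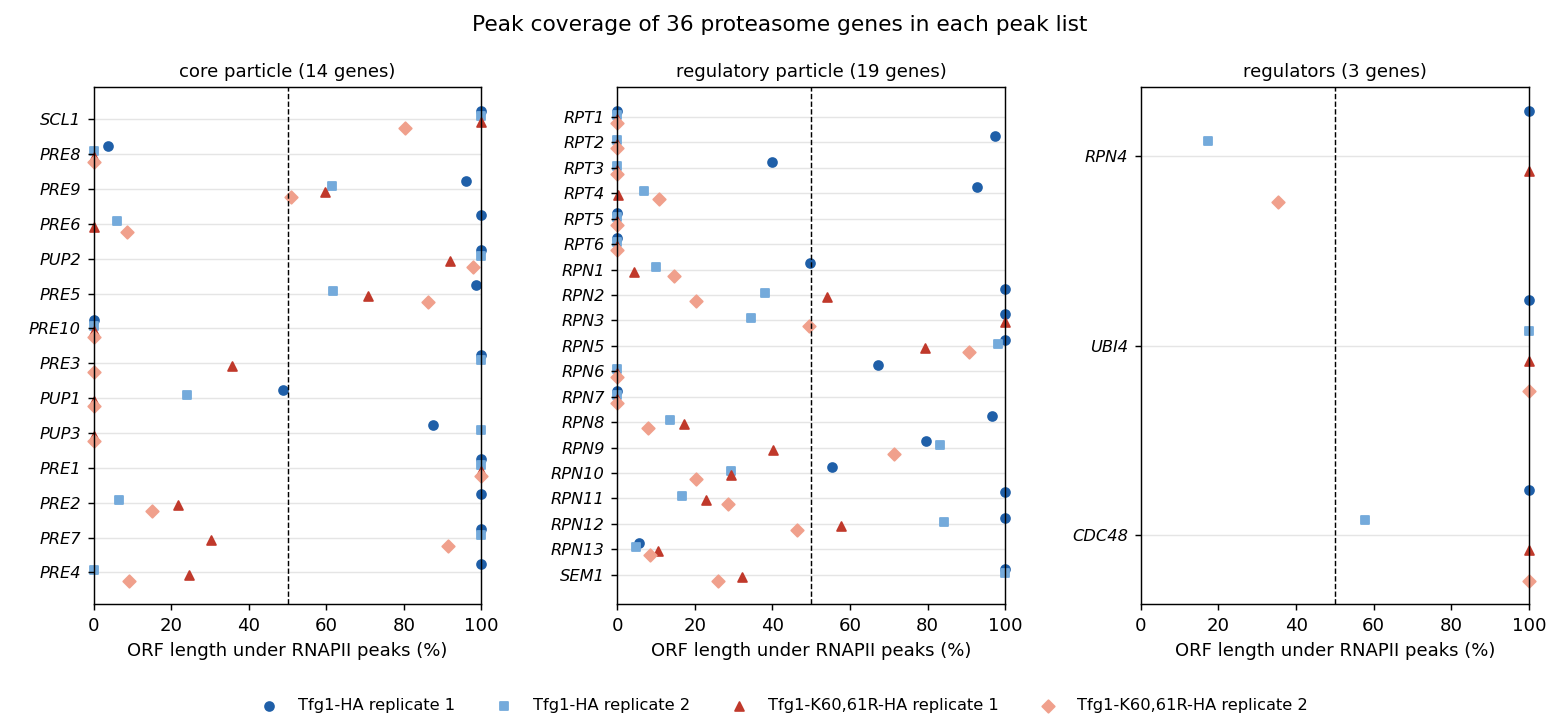
Share of each proteasome gene's ORF under RNAPII peaks (%, x axis from 0) in the 4 lists, with genes in rows grouped by class and a point for each list. The mark at 50% is the limit for occupied. PRE1 and UBI4 sit at 100% in all 4 lists, 9 genes pass the limit in Tfg1-HA replicate 1 only, and PRE10, RPT1, RPT5, RPT6 and RPN7 sit at 0% in all 4.

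In the regulatory particle, RPN5 (chrIV:190924-192261), which encodes a lid subunit, was the only gene occupied in every list. It had 100%, 98.1%, 79.3% and 90.7% covered by a peak of its own, with folds of 1.34, 1.27, 1.23 and 1.33. RPN12, another lid gene, had 100%, 84.2%, 57.7% and 46.4%, with the mutant lists below both Tfg1-HA lists. Its peak was shared with HXK1, the gene of a hexokinase, and had folds of 2.31, 1.43, 5.12 and 2.25, so coverage and fold ordered the lists differently. RPN9 had 79.6%, 83.1%, 40.1% and 71.4%, under a peak that in the first 3 lists also spanned BNA7 and TIF35. SEM1, the smallest of the ORFs at 270 bp and the gene of a lid subunit, was fully covered in both Tfg1-HA lists and to 32.2% and 25.9% in the mutant lists.

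RPN2, which encodes a large scaffold subunit of the base, was occupied in both replicate 1 lists, at 100% and 54.1%, and had 38.2% (Tfg1-HA) and 20.3% (Tfg1-K60,61R-HA) in the replicate 2 lists. The peak over its stop codon also held SEC28 in every list except Tfg1-K60,61R-HA replicate 2. RPN3, a lid gene, had 100%, 34.5%, 100% and 49.5%, and was just below the limit in Tfg1-K60,61R-HA replicate 2. RPN2, RPN3 and RPN4 were occupied in both lists with upper-case peak names and in neither list with lower-case names (8.33%, against 0.983% of all ORFs). That count equals the 3 genes that follow the strain labels (PRE3, PUP3 and SEM1). Of ORFs occupied in at least 1 list, the case pattern was held by 3 of 26 proteasome genes, against 59 of 1369 ORFs.

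The ATPase genes of the base were rarely covered. RPT2 had 97.3% in Tfg1-HA replicate 1 and 0% in the other lists. RPT3 had 39.9%, 0%, 0% and 0%. RPT4 had 92.6%, 6.85%, 0.304% and 10.9%. Of the 6 ATPase genes, RPT1, RPT5 and RPT6 had no peak in any list. RPN1, the other large base subunit gene and the longest member at 2982 bp, had 49.8%, 9.96%, 4.29% and 14.6%. The peak over its stop codon also held VMA16 in every list.

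RPN6, RPN8, RPN10 and RPN11 were occupied in Tfg1-HA replicate 1 and below the limit in the other 3 lists. RPN6 had 67.2%, 0%, 0% and 0%, under a peak shared with PMT1. RPN8 had 96.6%, 13.7%, 17.1% and 7.96%. RPN10, the gene of a ubiquitin receptor, had 55.4%, 29.2%, 29.2% and 20.2%. RPN11, the gene of the deubiquitinase of the lid, had 100%, 16.7%, 22.8% and 28.4%, and its peak in Tfg1-HA replicate 1 was shared with YPI1. RPN13, the gene of another ubiquitin receptor, was the only one of the 36 with higher coverage in both mutant lists than in both Tfg1-HA lists, at 5.52%, 4.88%, 10.6% and 8.49%, and stayed far below the limit.

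UBI4, the polyubiquitin gene at chrXII:64062-65207, was fully covered in each list by a peak of 1676 to 1807 bp that held no other ORF. Its folds were 3.54, 2.59, 3.27 and 2.70, which placed its peak 110th, 214th, 96th and 102nd by fold in the 4 lists. Among the proteasome genes with a peak of their own it had the highest fold in each list. The ORF consists of 5 repeat units of 228 bp with pairwise identities from 80.3% to 90.4%, and 9.55% of its 100-base windows occur again in the genome, while the other 35 genes had none, so its reads can be shared among copies.

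CDC48, which encodes the ATPase that extracts ubiquitinated proteins from complexes and membranes, had 100%, 57.7%, 100% and 100% of its ORF covered. In Tfg1-HA replicate 2 the peak region was broken into separate peaks of 1159 and 5155 bp, and in the other lists 1 peak of 6283 to 9883 bp spanned it. The peaks over its start codon also held SNA4, YDL124W and HNT1 in every list, with folds of 2.18, 2.13, 2.28 and 2.23. RPN4, the gene of the activator, had 100%, 17.2%, 100% and 35.5%, with folds of 1.69, 1.76, 2.10 and 1.42. In Tfg1-K60,61R-HA replicate 1 its peak was 5260 bp wide and also held GPM2 and GPD1. The mean coverage of the 3 regulators was 100%, 58.3%, 100% and 78.5%, so both replicate 1 lists were higher than both replicate 2 lists and the strain labels did not separate them.

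Comparison of the strains gave lower coverage of the proteasome genes in Tfg1-K60,61R-HA, a difference that rests largely on Tfg1-HA replicate 1. For the 36 genes the mean coverage came to 72.7% and 40.4% with Tfg1-HA, and to 35.6% and 32.5% with the mutant, or 56.6% ± 22.9 against 34.1% ± 2.21 (SD, n = 2). The difference was -22.51 points, and -6.342 points without Tfg1-HA replicate 1, against -4.13 and -2.75 points for the mean over all ORFs. The all-ORF mean started lower, at 20.1% in Tfg1-HA against 15.9% in the mutant, so the points are not proportions. Without Tfg1-HA replicate 1 the means were 40.4% against 34.1% for the proteasome genes and 18.7% against 15.9% for all ORFs. With the lists split by the case of their names (lower minus upper), the difference was -17.73 points. Of the 31 genes touched by a peak, 25 had a lower mean in Tfg1-K60,61R-HA, 4 had a higher mean and 2 were equal. The case split gave 24, 5 and 2, but 9 of the 31 genes changed sign under it, among them PUP3 (from -93.77 to 6.23 points), PRE7 (from -39.19 to 30.65) and CDC48 (from 21.17 to -21.17). Coverage was lower in both mutant lists than in both Tfg1-HA lists for 10 genes (27.8%, against 8.86% of all ORFs): PRE9, PUP2, PRE3, PUP1, PUP3, PRE7, RPN5, RPN9, RPN12 and SEM1. It was higher in both for RPN13 (2.78%, against 1.17%). An ORF that no peak touched cannot show either pattern, and such ORFs were 60.2% of all ORFs but 13.9% of the proteasome genes. Among touched ORFs, coverage was lower in 10 of 31 proteasome genes, against 532 of 2386 ORFs. The only genes above the limit in each Tfg1-HA list and below it in each mutant list were PRE3, PUP3 and SEM1 (8.33%, against 1.73%). Of ORFs occupied in at least 1 list, these were 3 of 26, against 104 of 1369. The count of 3 genes was 1 with equal numbers of peaks per list or with −log10 q-values of 2 or more, 0 with folds of 2 or more, 5 with the limit at 75%, 5 without Tfg1-K60,61R-HA replicate 2, and 12 without Tfg1-HA replicate 2. The opposite pattern was held by 0 of the 36 genes, against 0.150% of all ORFs. With 2 lists against 2, a two-sided exact permutation test of a gene's 4 coverage values cannot give a p below 0.333. Over the 2386 ORFs touched in at least 1 list, 602 reached that value, the smallest Benjamini-Hochberg adjusted p was 1, and 0 were below 0.05 with or without adjustment.

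The lists differed in how many peaks were called, so ranks within a list were also compared. Each ORF was ranked among the 6002 by its fold multiplied by the share covered, and 100 is the top of the percentile scale. The mean rank percentile of the proteasome genes was 77.5, 68.6, 67.5 and 70.2, where the mean over all ORFs is 50 by construction. The difference between strains was -4.205 percentile points, and it was 0.2242 points without Tfg1-HA replicate 1. Its direction also turned with equal numbers of peaks (4.43 points), with peaks of fold 2 or more (1.423) and with ORFs ranked by fold among those touched (1.054), so the ranks give no stable order of the strains. ORFs without a peak share a percentile that depends on the list, 32.4 in Tfg1-HA replicate 1 and 38.5 in Tfg1-K60,61R-HA replicate 2. With the same number of peaks, 894, taken from the top of each list, 17, 10, 10 and 10 genes were occupied, so Tfg1-HA replicate 1 remained the highest and the other 3 lists were equal.

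Where a proteasome gene was only partly covered, the covered part was usually its 3′ end. The stop codon lay under a peak in 29, 24, 24 and 21 of the 36 genes, against 30.0%, 25.5%, 27.1% and 19.9% of all ORFs. The start codon lay under a peak in 20, 13, 6 and 6 genes, against 20.9%, 18.0%, 15.3% and 11.7% of all ORFs. The stop codon was covered in all 4 lists for 19 genes (52.8%, against 16.9%), and the start codon for 5 (13.9%, against 9.96%), namely PRE1, RPN3, RPN4, UBI4 and CDC48. Between the strains the mean number of genes with a covered start codon differed by -10.5 and with a covered stop codon by -4. With equal numbers of peaks these differences were -5 and 2, with peaks of fold 2 or more -1.5 and 0, with peaks not shared with other genes -6 and -0.5, and without Tfg1-HA replicate 1 -7 and -1.5, so the direction for the stop codon was not stable. In the mutant lists the share of the proteasome genes with a covered start codon was 16.7% in each, near the shares of all ORFs. With the lists split by the case of their peak names, the mean number with a covered start codon differed by -3.5 (lower minus upper case) and with a covered stop codon by -4.

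Mean coverage was higher toward the 3′ end of the gene in each list. With each ORF cut into 10 equal parts, it was 64.1%, 37.1%, 19.4% and 20.9% in the first part, and in the last part it was 77.5%, 60.7%, 61.3% and 54.3%. The last part exceeded the first by 13.4, 23.6, 41.9 and 33.4 points, against 6.35, 4.98, 9.27 and 6.27 points for all ORFs. As a ratio, the last part was 1.21, 1.64, 3.16 and 2.6 times the first, against 1.3, 1.27, 1.6 and 1.53 times for all ORFs, so in Tfg1-HA replicate 1 the ratio was smaller than over all ORFs. In the 250 bp after the ORF the mean was 79.8%, 69.1%, 67.7% and 58.4%, and in the 250 bp before it 45.0%, 23.1%, 15.3% and 14.6%. The core and regulatory particles both showed this order, whereas the first part of the 3 regulators was covered to 100% in every list. The strain groups did not overlap in the first part and lay closer together in the last, where Tfg1-K60,61R-HA replicate 1 was above Tfg1-HA replicate 2. Over all ORFs the same held, with 21.0%, 18.3%, 15.5% and 11.9% in the first part. In the last part all ORFs had 27.4%, 23.3%, 24.7% and 18.2%. Split by the case of peak names, the first part of the proteasome genes overlapped, with 64.1% and 19.4% (upper) against 37.1% and 20.9% (lower). Peak calls carry no signal height within a peak, so these are shares of bases under peaks and not RNAPII levels along the gene.

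**Figure D3:**
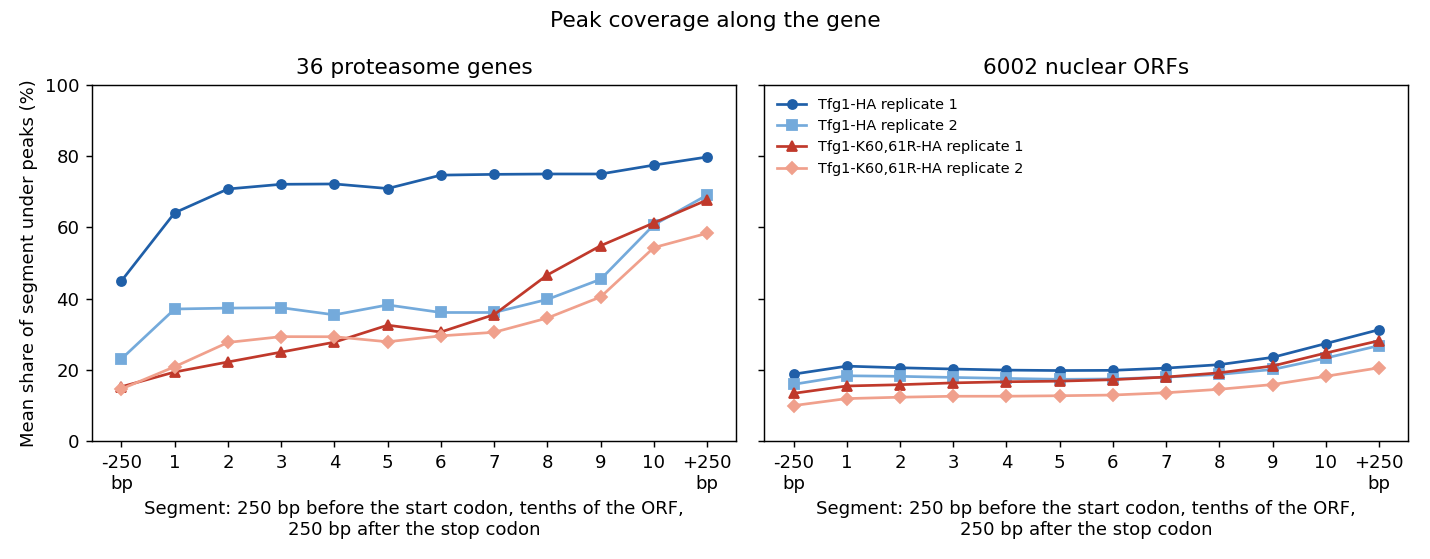
Mean share of bases under RNAPII peaks (%, y axis from 0) in the 250 bp before the ORF, in 10 equal parts of the ORF and in the 250 bp after it, for the 36 proteasome genes and for all 6002 ORFs, with a line for each list. In the mutant lists the proteasome genes are at 19.4% and 20.9% in the first part and at 61.3% and 54.3% in the last, a difference of 41.9 and 33.4 points, against 9.27 and 6.27 points over all ORFs.

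Single genes show the same shape. RPN8, which was nearly all covered in Tfg1-HA replicate 1, kept peaks of 377, 432 and 309 bp at its 3′ end in the other 3 lists, with folds of 1.64, 1.41 and 1.44. These ended 238, 258 and 228 bp beyond the ORF. RPN10 had peaks of 735, 468, 484 and 383 bp that all crossed the stop codon and ended 220 to 288 bp beyond it, with folds of 1.61, 1.52, 1.59 and 1.60. PRE2, RPN11 and RPT4 kept the same kind of short peak in the 3 lists where the body of the gene was not covered. At PRE2 these peaks were 295, 436 and 319 bp wide and at RPN11 they were 299, 416 and 441 bp wide. Peaks that crossed the stop codon of a proteasome gene and covered at least 50% of no other ORF ended a median of 259, 264, 280 and 257 bp beyond it, against 311.5, 314, 317 and 322 bp for peaks of all ORFs chosen in the same way. RPN4 and RPN3 had the opposite shape in the replicate 2 lists of both strains. There the RPN4 peaks of 465 and 802 bp crossed the start codon and left 1322 and 1030 bp at the 3′ end of the ORF outside, and the RPN3 peaks of 623 and 979 bp left 1030 and 794 bp outside. RPT3 and RPN6, in Tfg1-HA replicate 1, also had a peak on the start codon side only.

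**Figure D4:**
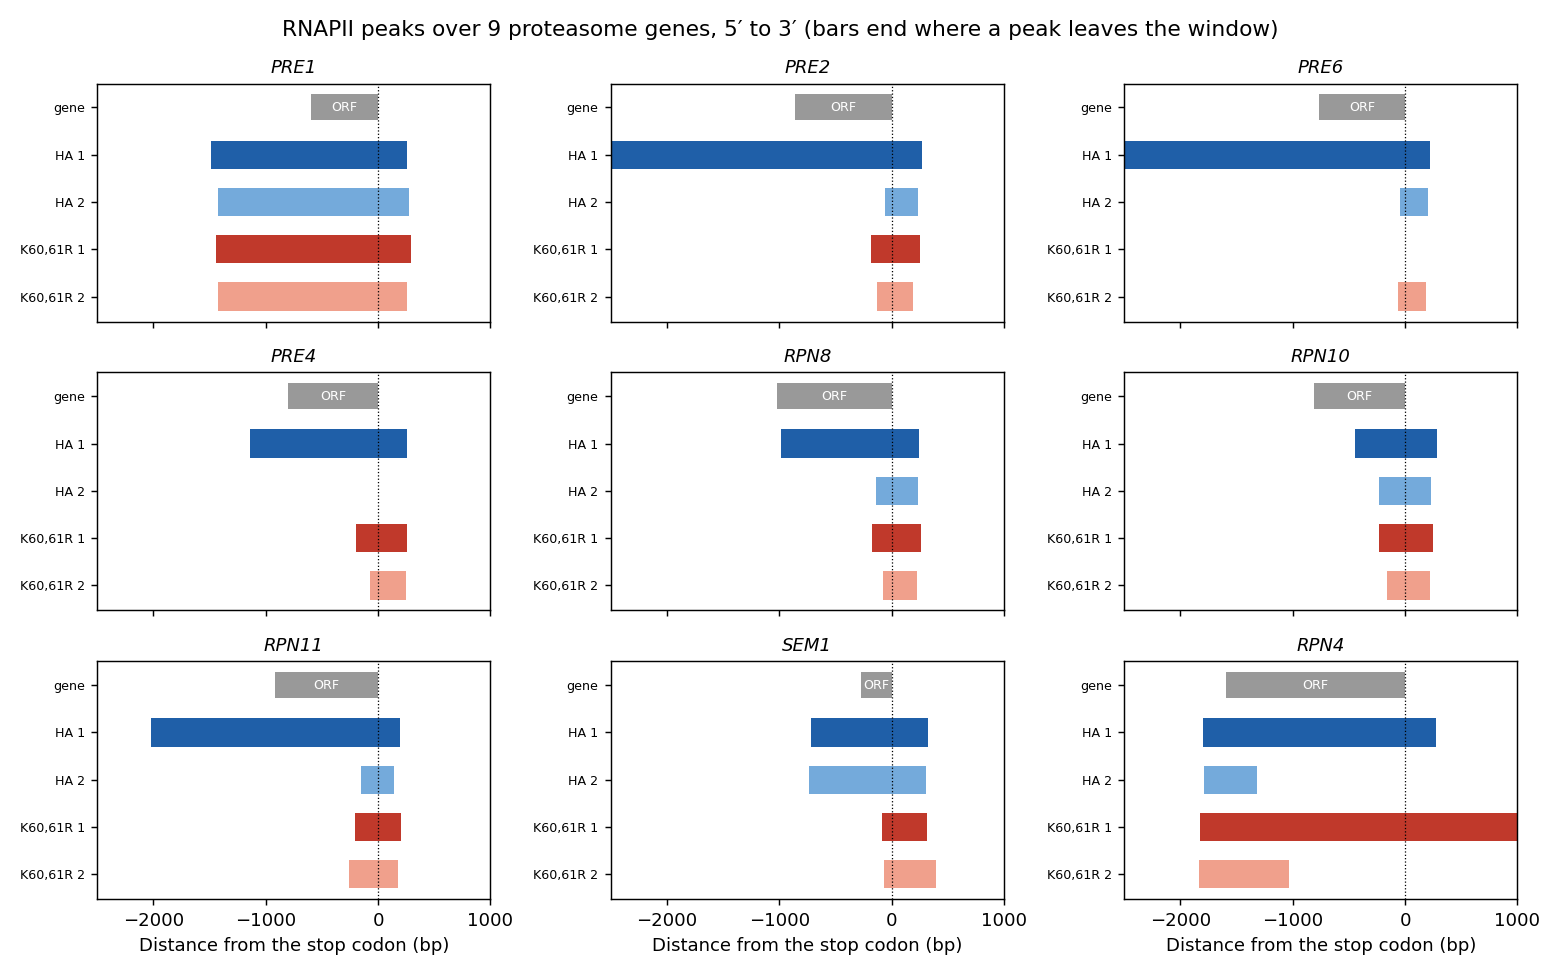
Extent of the RNAPII peaks over 9 proteasome genes, picked after their values were seen, drawn to scale as distance from the stop codon (bp, x axis, gene running left to right), with the ORF as a grey bar and a coloured bar for the peak in each list (HA, Tfg1-HA; K60,61R, Tfg1-K60,61R-HA; 1 and 2, replicates). Short peaks remain around the stop codon of PRE2, RPN8, RPN10 and RPN11 in the lists where the gene body is outside, PRE1 is fully covered in all 4 lists, and RPN4 keeps peaks at the start codon side.

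The peaks on the proteasome genes had folds near those of the lists as a whole. In the 4 lists 32, 29, 25 and 26 peaks touched these genes, with median folds of 1.48, 1.43, 1.5 and 1.43, close to the medians of all peaks (1.5, 1.48, 1.44 and 1.49). Peaks below a fold of 1.5 made up 53.1%, 58.6%, 48.0% and 65.4% of them, and 49.5%, 51.4%, 54.3% and 51.2% of all peaks. With peaks of fold 2 or more only, 6, 2, 5 and 2 genes were occupied. UBI4 was the only gene in all 4 of these sets, and SCL1 was in the first 3 through the peak it shared with PMA1. CDC48 was in 3, RPN12 in both replicate 1 lists, RPN4 in Tfg1-K60,61R-HA replicate 1, and PRE6 and PRE2 in Tfg1-HA replicate 1. When only peaks that covered at least 50% of no ORF outside the proteasome genes were used, 13, 7, 5 and 6 genes were occupied, and PUP2, PRE1, RPN5 and UBI4 were those occupied in all 4 lists.

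Genes from 4 other lists of the ubiquitin and proteasome system were also counted, beside 60.2% of all ORFs that no peak touched in any list, and 13.9% of the proteasome genes. Of 14 genes for assembly chaperones and proteasome-associated factors, 2, 1, 2 and 0 were occupied and 9 (64.3%) were touched in no list. POC4, the gene of an assembly chaperone, had 100%, 100%, 100% and 42.1%, and TMA17, the gene of another, had 97.6%, 0%, 72.8% and 14.8%. Of 11 genes for Cdc48 cofactors and ubiquitin shuttle proteins, 0 were occupied in any list and 9 (81.8%) were not touched. Of 18 genes for ubiquitin conjugation and deubiquitination, 3, 2, 2 and 1 were occupied and 12 (66.7%) were not touched. UBC4, which encodes a ubiquitin-conjugating enzyme for short-lived proteins, was fully covered in every list with folds of 1.84, 1.45, 1.56 and 1.35. CDC34, UBC13 and UBC7 were occupied in 2, 1 and 1 of the lists. The 3 genes that encode ubiquitin fused to a ribosomal protein, RPL40A, RPL40B and RPS31, were occupied in every list. Their folds were 5.1, 5.61, 3.71 and 3.33 at RPS31 and 2.75, 2.97, 2.21 and 2.04 at RPL40A.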

How the data were processed

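Per the labels and the study's methods, the authors trimmed paired-end reads of the 8WG16 immunoprecipitates, aligned them to sacCer3 with Bowtie2 2.3.5.1, and called broad peaks for each replicate with MACS2 2.2.7.1 against input. The deposited peak lists give a fold ratio over input and −log10 p- and q-values per peak, without read counts, so depth is unknown and no differential binding test on reads was run. The p-value column was not used for any result. The 894 rows repeated from Tfg1-K60,61R-HA replicate 2 in the list of replicate 1 were removed.

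For each of the 6002 nuclear ORFs of R64, from the first to the last coding base, the percent of bases under peaks, the overlap-weighted fold and the rank of their product within the list were computed with pandas 2.3.3, numpy 2.4.6 and scipy 1.17.1 under Python 3.11.15. A gene with 50% or more under peaks was called occupied. No set of genes was tested. A two-sided exact permutation test, adjusted by Benjamini-Hochberg, was run per ORF. The code was tested on simulated peaks. Motifs were searched in the R64 genome sequence, and no promoter table was used. All 36 genes are described, and values in every list are given for each gene touched by a peak. The members, the lists and the stop and start codon counts were chosen with earlier results of these data known. Alternatives were stricter peaks, other overlap limits, equal numbers of peaks, repeated rows kept, 250 bp added upstream, another rank, the split by case of names, a replicate block, each replicate left out and, chosen after seeing the data, peaks not shared with other genes.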

Additional observations from a re-analysis of the deposited data

How the results depend on the processing

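Of the values that answer a comparison, 93 stayed within the spread between replicates of the main value or within 1.5 times a count, 25 moved and 5 changed sign. The count of 93 does not show stability, because the spread in Tfg1-HA was wide (SD 8.49 occupied genes and 22.9 points of coverage, n = 2). A change from -9 to -3 occupied genes thus counted as within it. Values under the replicate block equal the main ones by construction, and the case split kept a count of 3 with other genes. With peaks of fold 2 or more, the differences (Tfg1-K60,61R-HA minus Tfg1-HA) were -0.5 occupied genes, -1.993 points of coverage, 1.423 rank percentile points (sign changed), -1.5 covered start codons and 0 covered stop codons, 1 gene was occupied in all 4 lists, 0 in the Tfg1-HA lists only, 3 genes had a lower mean in the mutant, and covered stop codons exceeded start codons by 0.25 genes instead of 13.25. With −log10 q of 2 or more, 1 gene was occupied in the Tfg1-HA lists only. Counting any overlap, 22 genes were occupied in all 4 lists, and at 75% of the ORF 5 were, with 5 in the Tfg1-HA lists only. With equal numbers of peaks, 1 gene was occupied in the Tfg1-HA lists only, 14 had a lower mean in the mutant, and the differences were 4.43 rank percentile points and 2 covered stop codons (both signs changed) and -5 covered start codons. Ranking by fold among touched ORFs gave 1.054 percentile points (sign changed). The split by case of names gave -3.5 covered start codons. Using peaks not shared with other genes, 4 genes were occupied in all 4 lists, 15 had a lower mean in the mutant, stop exceeded start codons by 8.25, and the differences were -6 start and -0.5 stop codons. Leaving out each replicate gave -15 to -3 occupied genes, -38.68 to -6.342 points of coverage and -8.635 to 0.2242 rank percentile points (sign changed without Tfg1-HA replicate 1). In every list that remained, 8 to 10 genes were occupied. Occupied in the remaining Tfg1-HA lists only were 3 to 12 genes, and the 12 rests on Tfg1-HA replicate 1 alone. A lower mean in the mutant was found for 17 to 27 genes. The differences were -14 to -7 start codons and -6.5 to -1.5 stop codons, and stop exceeded start codons by 11.67 to 14.67. Beyond what the settings themselves remove, the cause of these changes was not tested. The replicate block left the mean differences at -9 genes, -22.51 points and -4.205 percentile points, and with 2 pairs its smallest p is 0.5. Deviations of same-numbered lists correlated at 0.123 over 2386 ORFs, and no label gives a shared batch, so the number was not taken as a pairing. Peak lists limit what can be seen: a gene without a peak was not above the caller's threshold at an unknown depth, which does not show that RNAPII was absent.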
